A study of Mus musculus with 36 samples.

Results

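The Slc25a family was followed through 36 cultures of primary mouse hepatocytes. Its members were taken by name, as every protein-coding gene whose mouse symbol is Slc25a followed by a number, which gave 47 of the 52230 genes with transcripts in the files (21542 of them protein-coding). Of the 47 members, 38 held enough reads to enter the tests, which covered 12177 genes, and 9 did not.

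Hepatocytes came from 3 adult female mice of the GCKR-P446L-EMI-B6N strain, labelled Gckr-446L for mice 1 and 2 and Gckr-446P/L for mouse 3. The study counts hepatocytes of its homozygous 446L mice among cells deficient in the glucokinase regulatory protein (GKRP). GKRP binds glucokinase (GK) in the nucleus. In such hepatocytes of male mice the study measured GKRP protein that was very low but present, with mRNA of its gene similar to wild type. The label of mouse 3 departs from the homozygous genotype, and which of them holds for it is not known here. The same 10 conditions were set up from each mouse. At endogenous GK these were untreated cells (UN) and cells given an adenoviral vector for human GKRP-446P (hP), human GKRP-446L (hL), mouse GKRP-446P (mP) or mouse GKRP-446L (mL). A GK vector was added alone (GK) or together with each of these (GK+hP, GK+hL, GK+mP and GK+mL). All cultures shared medium with 10 nM insulin and 10 nM dexamethasone, and spent 24 h at 5 mM glucose and then 4 h at 25 mM glucose. UN and GK had 2 cultures per mouse, which were summed, and the others 1, so each condition has n = 3 mice. No condition carried an empty vector, so a response to adenovirus and a response to the expressed protein cannot be told apart in comparisons with UN, nor where GKRP and GK vectors together are set against a single vector. Mouse, preparation and genotype label cannot be told apart either.

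Libraries held 3924674 to 10046158 reads (median 5980276). Gckr, which encodes GKRP, was 9010 CPM (read counts scaled to library size) or more in every sample with a mouse GKRP vector. In the others it was at most 119 CPM, except for mouse 3 in GK at 845 CPM, where 1 of 2 cultures held 1463 CPM. Human GCKR is not among the mouse transcripts counted. The 9 hepatocyte markers summed to 76403 to 144565 CPM, against 214 to 325 CPM for 8 macrophage markers, 52.5 to 116 CPM for 7 endothelial, 20.5 to 153 CPM for 7 stellate and 15.4 to 245 CPM for 6 cholangiocyte markers. Of the 29 markers tested, 0 were called in any comparison.

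Slc25 carriers are the largest family of transporters of the mitochondrial inner membrane. Most exchange a metabolite of the matrix for one of the cytosol, and in liver they serve oxidative phosphorylation, the urea cycle, gluconeogenesis, export of citrate for lipid synthesis, and the supply of cofactors and iron. A few members sit in other membranes, such as the peroxisomal Slc25a17 and Slc25a46 of the outer mitochondrial membrane, and for several the substrate is not settled.

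In untreated hepatocytes 3 members made up 64.4% of the summed TPM of the family and 10 members 87.3%. TPM (Salmon's transcript abundances) divide by transcript length and so allow levels of different genes to be compared. Slc25a3, the phosphate carrier, stood at 367 ± 178 TPM (SD, n = 3), Slc25a5, an ADP/ATP carrier, at 330 ± 70.6 TPM, and Slc25a39, required for import of glutathione, at 321 ± 40.0 TPM. The ranges of these 3 overlapped between mice, and all lay above Slc25a1, the citrate carrier, at 124 ± 43.0 TPM. Slc25a13 (citrin, the aspartate/glutamate carrier of liver) at 54.0 ± 31.2 TPM and Slc25a22, a glutamate carrier, at 53.0 ± 10.6 TPM came next. After them stood Slc25a30 (42.1 ± 16.6 TPM), related to the uncoupling proteins, Slc25a51 (36.3 ± 12.2 TPM), needed for mitochondrial NAD, Slc25a25 (31.2 ± 15.2 TPM), an ATP-Mg/phosphate carrier, and Slc25a11 (22.0 ± 13.6 TPM), the oxoglutarate carrier. Among the first 20 steps down this order, the ranges of neighbours were apart at 2, between Slc25a39 and Slc25a1 and between Slc25a1 and Slc25a13.

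Slc25a4, the ADP/ATP carrier of heart and muscle, was at 2.26 ± 0.561 TPM, far below its paralog Slc25a5. These coding sequences are alike, so part of their reads can be placed on either. Of the 9 members left out of the tests, 7 held reads (Slc25a2, Slc25a18, Slc25a21, Slc25a31, Slc25a35, Slc25a43 and Slc25a53), with a highest value in any sample of 0.189 to 1.28 CPM. Slc25a41 and Slc25a54 held 0 reads in all 36 libraries together, which allows up to 0.0138 CPM if 3 reads are taken as the limit of a count of 0, counting error only. Dividing CPM by effective length in place of TPM left 9 of the same 10 members at the top. Slc25a23, an ATP-Mg/phosphate carrier, moved from place 15 to 27, and its TPM ran from 1.90 to 25.1 between mice.

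**Figure D1:**
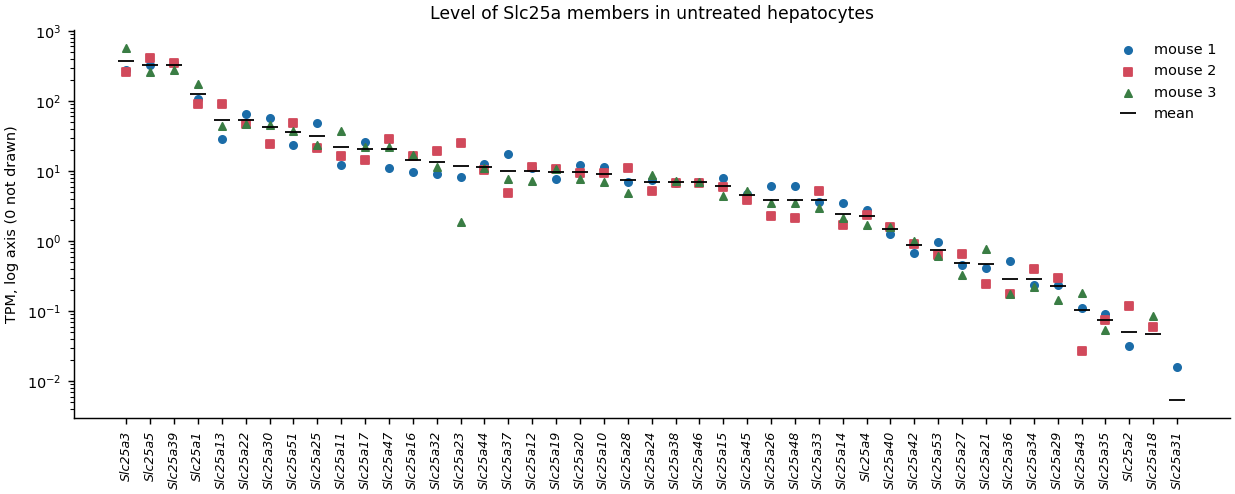
TPM (log axis) of the Slc25a members with reads in untreated hepatocytes, ordered by the mean of 3 mice. Points are mice, dashes are means, and values of 0 are not drawn. Slc25a3, Slc25a5 and Slc25a39 lie above the rest, and the last members lie below 1 TPM.

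The first comparison asked which members differ with excess GK. GK alone was set against the 5 endogenous-GK conditions as 1 group. A member was called when its adjusted p was under 0.05 and its fold was 1.3 or more, or 0.7 or less. Slc25a47, Slc25a44 and Slc25a29 were raised and no member was lowered. That is 3 of 38 members (7.89%) raised, beside 0.394% of all genes tested, and 0 lowered beside 0.0328%. Slc25a29 held at most 1.41 CPM in the endogenous-GK samples. It may have entered the tests only through samples with the GK vector, so its place in this share is not independent of the filter. With a filter on total reads (at least 10) the same 3 members were called raised. The median log2 fold change of the 38 members, 0.08, lay near that of all genes, -0.011. Of the members 25 of 38 were higher, beside 47.6% of all genes, a difference that was not tested.

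**Figure D2:**
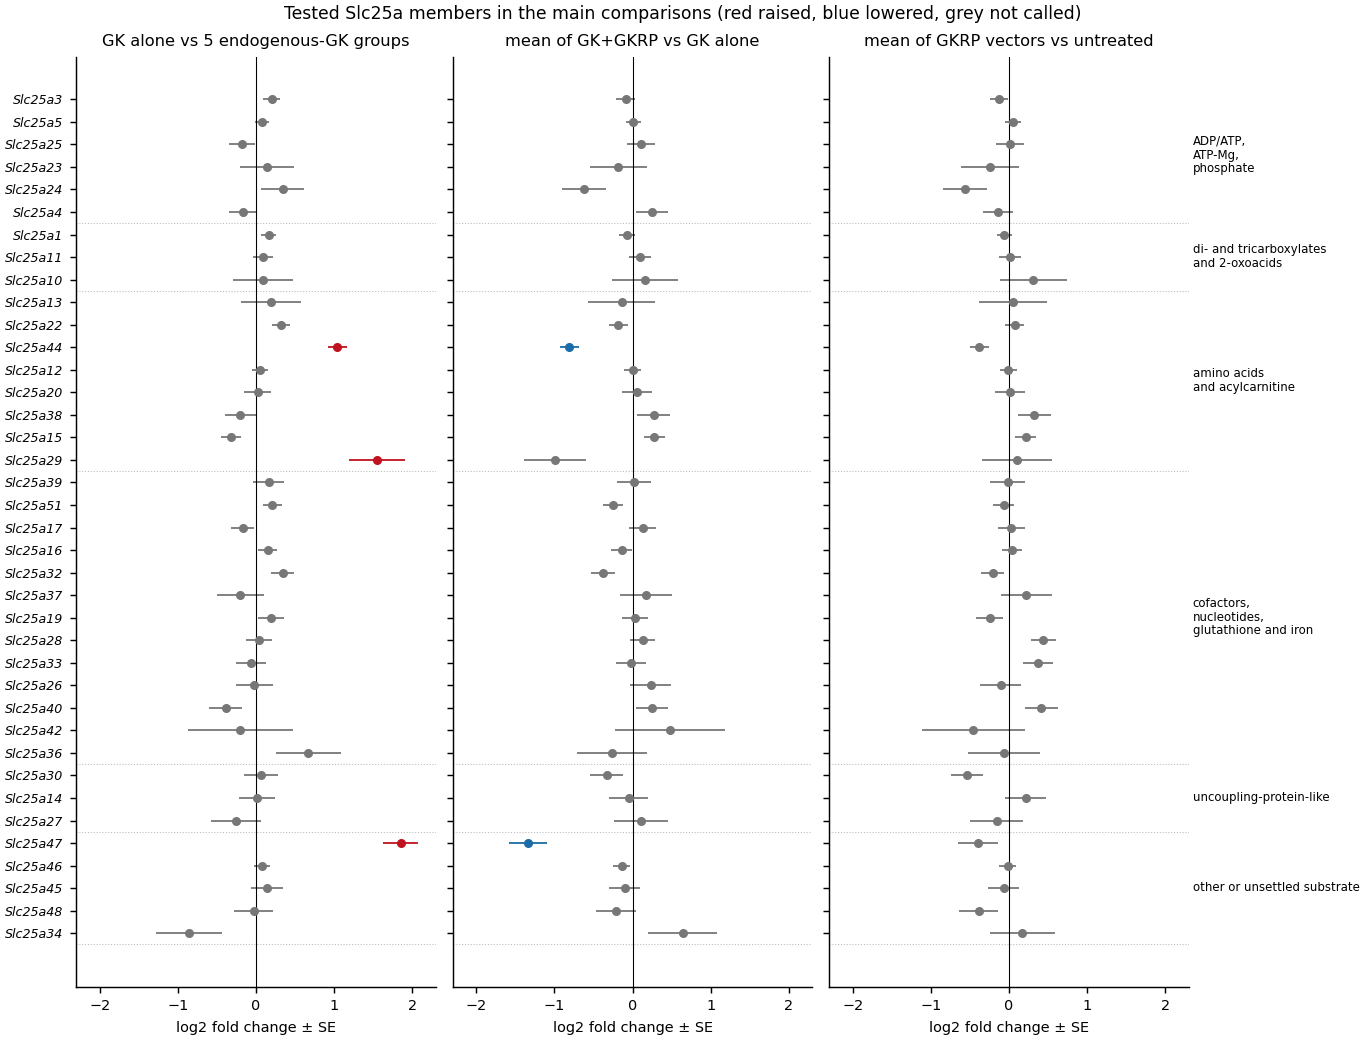
Log2 fold change ± SE of the 38 tested members, grouped by role, in 3 comparisons: GK alone against the 5 endogenous-GK groups, the mean of the 4 GK+GKRP conditions against GK alone, and the mean over 4 GKRP vectors against UN. Red points were called raised and blue points lowered. Slc25a47 and Slc25a44 are red in the first panel and blue in the second, Slc25a29 is red in the first only, and no point of the third panel is coloured.

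Slc25a47 (ENSMUSG00000048856) is a carrier found mainly in hepatocytes, whose substrate is not settled. The gene lies on the plus strand of chromosome 12, from 108801972 to 108822741 of GRCm39. Of its reads, 93.3% were assigned to the coding transcript that begins at 108817021. The bases just before that start are shown because this member had the largest difference of the family. They are taken from the RefSeq promoter table, where they have the GRCm38.p6 position chr12:108850879-108851094 on the plus strand, and they match GRCm39 once on that chromosome, at chr12:108816805-108817020. Capitals mark CG dinucleotides, 5 in the 216 bases shown.
Slc25a47: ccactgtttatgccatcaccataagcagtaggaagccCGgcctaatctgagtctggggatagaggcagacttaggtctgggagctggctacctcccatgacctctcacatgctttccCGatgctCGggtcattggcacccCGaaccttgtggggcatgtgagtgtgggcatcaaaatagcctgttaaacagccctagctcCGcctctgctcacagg
The whole RefSeq window is the 250 bases before the RefSeq start, which lies 34 bp downstream of the start named above. It holds 6 CG dinucleotides, and 50.4% of 32851 such windows of mouse genes hold at least as many. The E-box CACGTG, the same on both strands, is not found in it with the next 50 bases added.

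Reads of Slc25a47 in UN were 19.5, 48.7 and 37.8 CPM in mice 1, 2 and 3. In GK they were 77.8, 124 and 106 CPM. Every GK value lay above every value of the 15 endogenous-GK samples, of which the highest was the UN sample of mouse 2. The log2 fold change against the 5 groups was 1.85 (SE 0.22, adjusted p = 1.38e-05), a 3.60-fold rise in 3 of 3 mice. In TPM, Slc25a47 was 20.7 ± 9.0 in UN and 77.5 ± 8.56 in GK (SD, n = 3 each). Between 857 and 1706 reads per mouse supported the GK values.

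Slc25a44 (ENSMUSG00000050144) imports branched-chain amino acids into mitochondria. It lies on the minus strand of chromosome 3, from 88317802 to 88332564 of GRCm39. It held 53.2, 63.7 and 68.2 CPM in UN of mice 1, 2 and 3, and 82.1, 113 and 115 CPM in GK. The GK samples again stood clear of all endogenous-GK samples. Its log2 fold change was 1.04 (SE 0.12, adjusted p = 1.38e-05), higher in 3 of 3 mice. In TPM it was 11.4 ± 1.19 in UN and 28.7 ± 3.93 in GK (SD, n = 3 each).

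Slc25a29 (ENSMUSG00000021265) carries basic amino acids such as arginine and lysine. In UN it held 0.792, 0.975 and 0.447 CPM in mice 1, 2 and 3, and in GK 2.90, 1.89 and 2.16 CPM. These levels are low, with 6 to 13 reads per mouse in UN and 26 to 32 in GK. The GK samples lay above all 15 endogenous-GK samples, where the highest was 1.41 CPM with hL. The log2 fold change was 1.55 (SE 0.36, adjusted p = 0.0407, 3 of 3 mice). The call was lost on leaving out any 1 of the 3 mice, although the log2 fold change then stayed between 1.45 and 1.61, and with a correction for transcript length.

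Slc25a29 and Slc25a47 are neighbours. The minus-strand Slc25a29 runs from 108791795 to 108802201 on chromosome 12 of GRCm39, so that the annotated genes overlap head to head by 230 bp. The overlap comes from minor Slc25a47 transcripts that start there and held 41 of the 10128 Slc25a47 reads of the 36 libraries, whereas the main start of Slc25a47 lies 14820 bp from that of Slc25a29. On either side, Yy1 had a log2 fold change of 0.26 (SE 0.09, adjusted p = 0.264) and Wars1 of 0.01 (SE 0.14). The RefSeq window before Slc25a29, which lies inside the Gencode gene (its far end 399 bp from the annotated start), holds 25 CG dinucleotides, and 10.7% of windows hold as many or more. The family has 3 other pairs within 100 kb, Slc25a23 with Slc25a41, Slc25a24 with Slc25a54 and Slc25a5 with Slc25a43, and in each of these 1 member was too low to test.

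GK was also compared with UN alone, a reference with fewer samples and no GKRP vector. The log2 fold change was 1.54 (SE 0.34, adjusted p = 0.169) for Slc25a47, 0.75 (SE 0.16, adjusted p = 0.14) for Slc25a44 and 1.63 (SE 0.54, adjusted p = 1) for Slc25a29, each higher in 3 of 3 mice and with no overlap of the groups. No member was called by edgeR, against 0.00821% of all genes raised. At an unadjusted p under 0.05, 4 of 38 members were higher, beside 135 of the 12177 genes tested, and 0 were lower, beside 114. With the mouse as a block, which pairs samples of the same animal, Slc25a47 (log2 fold change 1.56, adjusted p = 0.00292) and Slc25a44 (0.74, adjusted p = 0.00249) were called raised, beside 0.345% of all genes. DESeq2 called the same 2 members, beside 0.162% of the genes it tested.

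By role, the carriers of energy metabolism lay near 0 with GK. None of the 6 tested members for ADP/ATP, ATP-Mg and phosphate was called, and their log2 fold changes ran from -0.18 (Slc25a25) to 0.34 (Slc25a24). Slc25a3 was 290.0 CPM in GK and 253 CPM over the 5 groups (log2 fold change 0.20, SE 0.11, adjusted p = 0.717). The 3 tested carriers of di- and tricarboxylates, Slc25a1, Slc25a11 and Slc25a10, had values of 0.16, 0.09 and 0.09, none called.

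Among 8 tested carriers of amino acids and acylcarnitine, Slc25a44 and Slc25a29 were the 2 called. Slc25a13, the most abundant, was 136 CPM in GK against 119 CPM (log2 fold change 0.19, SE 0.38). Slc25a22 had 0.32 (SE 0.12, adjusted p = 0.38), and the ornithine carrier Slc25a15, which serves the urea cycle, had -0.32 (SE 0.13, adjusted p = 0.444), lower in 3 of 3 mice.

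None of 13 carriers of cofactors, nucleotides, glutathione and iron was called, from -0.39 for Slc25a40 (SE 0.21), a paralog of Slc25a39, to 0.67 for Slc25a36 (SE 0.42), a pyrimidine nucleotide carrier at about 1 CPM. Slc25a39 itself was 265 CPM in GK and 237 CPM over the 5 groups, a log2 fold change of 0.16 (SE 0.20). Slc25a32, the folate or FAD carrier, had 0.34 (SE 0.15, adjusted p = 0.514) and was higher in 3 of 3 mice. The 3 members like uncoupling proteins, Slc25a30, Slc25a14 and Slc25a27, had 0.06, 0.01 and -0.25. In the last group, of other or unsettled substrate, Slc25a47 was the 1 called of 5, and Slc25a34, with 0.686 CPM in GK against 1.27 CPM, had the lowest value of the family at -0.86 (SE 0.42, adjusted p = 0.64).

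Genes outside the naming rule that serve the same membranes showed no calls in any comparison. Of these, 3 tested carriers belong to the same family under other symbols (Ucp2, Mtch1 and Mtch2). The rest were 15 genes of other routes across the mitochondrial membranes and 13 genes for import of carrier proteins. For GK against the 5 groups their medians were -0.03, 0.09 and 0.07 on the log2 scale. Mpc1 and Mpc2, the mitochondrial pyruvate carrier, had 0.19 (SE 0.29) and 0.22 (SE 0.14), and Cpt1a, which commits fatty acids to mitochondrial oxidation, had -0.42 (SE 0.40, adjusted p = 0.989). With the mouse as a block the value of Cpt1a was again -0.42 (SE 0.11, adjusted p = 0.042), short of the fold limit.

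The second comparison asked how members differ when GKRP is expressed with the GK vector. It uses the same GK samples as the first, so the directions are not independent of each other. Over the mean of 4 GKRP vectors, 2 of 38 members were lowered (5.26%), beside 0.501% of all genes, and 0 were raised beside 1.11%. The 2 were Slc25a47 and Slc25a44. The median of the family was -0.01, and that of all genes 0.01.

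Slc25a47 was 26.2, 40.6 and 24.2 CPM in GK+hP of mice 1, 2 and 3, and 29.7, 30.4 and 25.6 CPM in GK+mP. It was 41.9, 53.8 and 37.5 CPM in GK+hL, and 59.4, 89.0 and 63.4 CPM in GK+mL. The GK+hP and GK+mP samples thus stood below all 3 GK samples, as did GK+hL, while GK+mL overlapped them, and within each mouse all 4 vectors gave a lower value than GK (12 of 12 pairs, which share the 3 GK samples). The mean over the vectors had a log2 fold change of -1.34 (SE 0.24, adjusted p = 0.00253), a fall.

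Taken vector by vector, Slc25a47 fell by 1.76 with hP (SE 0.34, adjusted p = 0.0289) and by 1.85 with mP (SE 0.34, adjusted p = 0.0194). With hL the log2 fold change was -1.21 (SE 0.33, adjusted p = 0.354) and with mL -0.54 (SE 0.33, adjusted p = 0.966), neither called. Beside these, 0.0985% of all genes were lowered with hP, 0.205% with mP, 0.00821% with hL and 0% with mL.

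Slc25a44 was likewise lower with each vector. Its means were 56.4 ± 4.59 CPM in GK+hP, 57.3 ± 11.8 CPM in GK+hL, 50.0 ± 9.54 CPM in GK+mP and 75.9 ± 9.22 CPM in GK+mL (SD, n = 3 each), against 104 ± 18.6 CPM in GK. It was lower than GK in 12 of 12 pairs and fell over the mean of the vectors, with a log2 fold change of -0.81 (SE 0.12, adjusted p = 0.000198). Singly it fell by 0.88 with hP (adjusted p = 0.0345) and by 1.05 with mP (adjusted p = 0.0137), while the log2 fold changes with hL (-0.85, adjusted p = 0.22) and mL (-0.45, adjusted p = 0.638) did not pass. The single-vector calls of Slc25a47 and Slc25a44 were lost when a transcript length correction was made or when only the conditions compared entered the fit, and without mouse 3 so were the calls for the mean. Without mouse 1 only Slc25a44 with mP kept its single-vector call, and without mouse 2 or mouse 3 none did. On leaving out a mouse the log2 fold changes ran from -1.87 to -1.60 with hP and from -2.04 to -1.74 with mP for Slc25a47, and from -0.98 to -0.78 and from -1.13 to -0.98 for Slc25a44. For the mean they ran from -1.46 to -1.23 for Slc25a47 and from -0.85 to -0.75 for Slc25a44.

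With the mouse as a block, hL also lowered Slc25a47 (log2 fold change -1.22, adjusted p = 0.0305) and Slc25a44 (-0.86, adjusted p = 0.00601), beside 0.312% of all genes. mP then lowered Slc25a32 too (-0.56, adjusted p = 0.00767), beside 2.37%. For the mean of the vectors the block added Slc25a24 (-0.64, adjusted p = 0.00568), an ATP-Mg/phosphate carrier, beside 1.42%. Slc25a29 was 1.00 ± 0.417 CPM in GK+hP, 1.05 ± 0.551 CPM in GK+hL, 1.05 ± 0.586 CPM in GK+mP and 1.61 ± 0.631 CPM in GK+mL (SD, n = 3 each). It was lower than in GK in 12 of 12 pairs, with a log2 fold change over the mean of -0.99 (SE 0.40, adjusted p = 0.332), not called. Slc25a24, Slc25a32 and Slc25a51 were also lower than in GK in 12 of 12 pairs. How many of all genes were so was not counted.

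**Figure D3:**
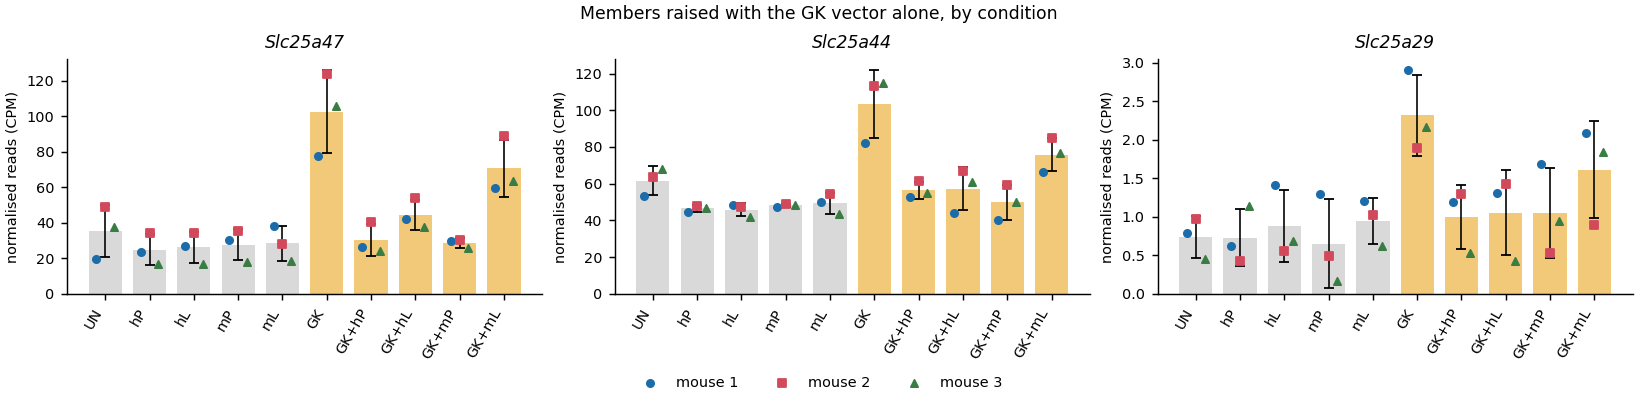
Normalised reads (CPM) of Slc25a47, Slc25a44 and Slc25a29 in the 10 conditions. Bars are means of 3 mice, error bars are SD, points are mice, grey bars are conditions at endogenous GK and amber bars conditions with the GK vector. GK alone is the highest condition in all 3 panels, followed by GK+mL.

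Most other carriers lay close to 0 on the log2 scale, and none of those that follow was called. Slc25a5 had a log2 fold change of 0.01 (SE 0.10) over the mean of the vectors, Slc25a1 of -0.07 (SE 0.10), Slc25a39 of 0.02 (SE 0.22) and Slc25a22 of -0.18 (SE 0.12). Slc25a15 had 0.28 (SE 0.13) and Slc25a38, a glycine carrier, 0.27 (SE 0.21), both higher in 3 of 3 mice and neither called, and with the length correction Slc25a15 turned to -0.01. Slc25a30 had -0.33 (SE 0.21), which turned to 0.48 with the length correction, and Slc25a34 had 0.64 (SE 0.44).

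The variants were then compared within a species. With the GK vector, mL exceeded mP for Slc25a47 by a log2 difference of 1.31 (SE 0.35, adjusted p = 0.987) and for Slc25a44 by 0.60 (SE 0.16, adjusted p = 0.974), in 3 of 3 mice and with no overlap of the samples. The corresponding unadjusted p were 0.000997 and 0.00088, and no member was called, beside 0.0164% of all genes raised. Slc25a32 was 23.7, 36.5 and 27.5 CPM in GK+mP of mice 1, 2 and 3, and 37.0, 45.6 and 37.3 CPM in GK+mL. With the mouse as a block all 3 were called higher with mL than with mP (Slc25a47 1.28, adjusted p = 0.0339; Slc25a44 0.61, adjusted p = 0.031; Slc25a32 0.47, adjusted p = 0.0386), beside 0.189% of all genes. Gckr itself, which holds the vector transcript, was 16435 ± 3220 CPM in GK+mP and 11480 ± 2777 CPM in GK+mL (SD, n = 3 each), and its part in these differences was not tested.

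For the human pair with GK, hL exceeded hP for Slc25a47 by 0.55 (SE 0.34, adjusted p = 1, 3 of 3 mice), while for Slc25a44 the difference was 0.02 (SE 0.16). No member was called there (0% of all genes raised). At an unadjusted p under 0.05 there were 0 members, beside 128 genes higher and 127 lower of the 12177 tested. Whether the human and the mouse pair differ was not tested. At endogenous GK the 446L and 446P vectors gave Slc25a47 values within 0.06 (hL against hP, SE 0.35) and 0.03 (mL against mP, SE 0.34) of each other on the log2 scale. No member was called there, and neither was any other of the 12177 genes tested, in either pair.

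GKRP was next compared with untreated cells at endogenous GK. Over the mean of 4 vectors 0 of 38 members were raised, beside 1.49% of all genes, and 0 were lowered, beside 0.402%. At an unadjusted p under 0.05, 1 member was higher and 2 were lower, beside 654 and 486 of the 12177 genes tested. Vector by vector 0 members were called with hP, hL, mP or mL, whereas of all genes 0.706%, 0.805%, 0.994% and 0.912% were raised and 0.0739%, 0.0739%, 0.123% and 0.14% lowered. The family median was -0.02 and that of all genes -0.001.

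With the mouse as a block, 1 member was raised (beside 3.1% of all genes) and 1 lowered (beside 1.05%), shares close to those of all genes. The lowered member was Slc25a24, at 26.5, 21.4 and 31.1 CPM in UN of mice 1, 2 and 3 and lower in 12 of 12 pairs of a vector with UN. Its range over the 12 vector samples was 11.3 to 27.1 CPM, which overlapped UN, and its blocked log2 fold change was -0.61 (SE 0.14, adjusted p = 0.00967). Singly it was called with hL (-0.69, adjusted p = 0.0491, beside 0.46% of all genes) and with mP (-0.67, adjusted p = 0.0491, beside 0.895%).

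Slc25a28 (mitoferrin-2, an importer of iron) was the member raised in the blocked fit. It held 13.7, 12.7 and 9.47 CPM in UN of mice 1, 2 and 3 and 11.8 to 22.0 CPM with the vectors, higher in 11 of 12 pairs (log2 fold change 0.43, SE 0.13, adjusted p = 0.0443). Of its reads, 57.6% were assigned to the main coding transcript and 25.9% to a retained-intron transcript. Another 13.8% went to a transcript without a defined coding sequence. Slc25a37 (mitoferrin-1), the paralog of Slc25a28, had 0.23 (adjusted p = 0.131) in the same fit and was higher in 12 of 12 pairs. Slc25a30 held 143, 67.0 and 88.6 CPM in UN and was lower in 12 of 12 pairs, with a blocked log2 fold change of -0.50 (SE 0.11, adjusted p = 0.00412), a fold that just missed the limit of 0.7. With hL alone it was called at -0.60 (adjusted p = 0.0138).

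**Figure D4:**
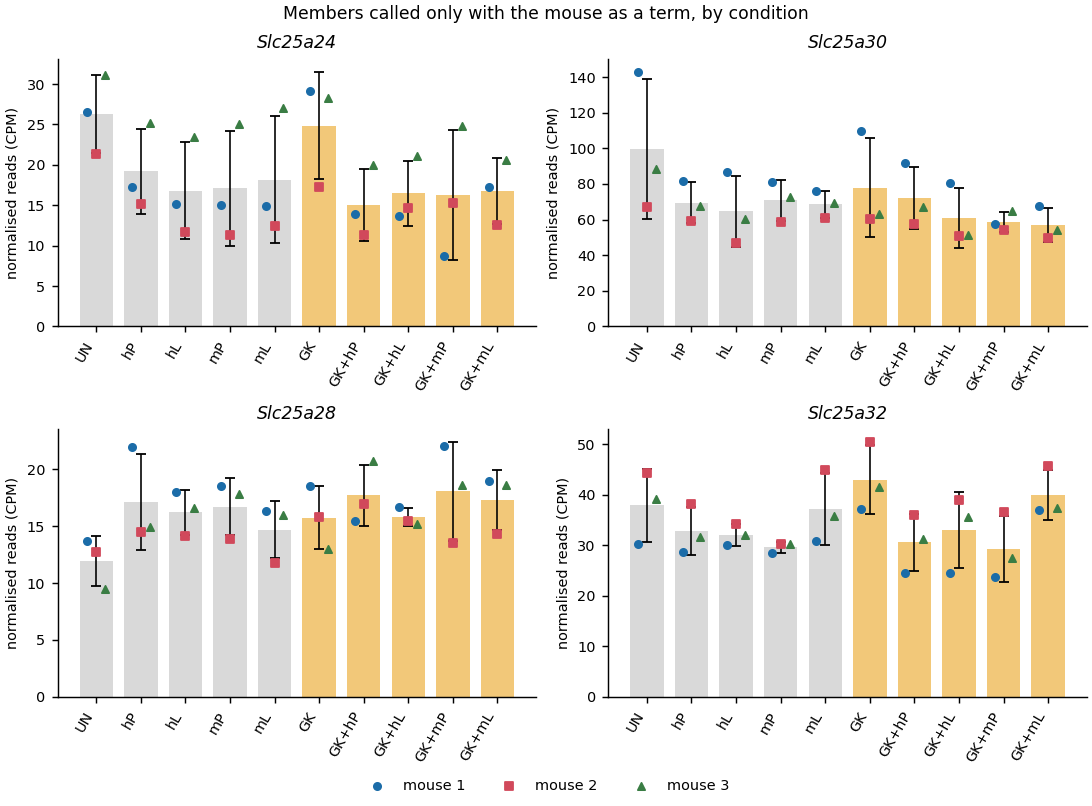
Normalised reads (CPM) of Slc25a24, Slc25a30, Slc25a28 and Slc25a32, the members called only in the fit with the mouse as a term. Bars are means of 3 mice, error bars are SD and points are mice, with grey for endogenous GK and amber for the GK vector. Slc25a24 and Slc25a30 are highest in untreated cells, and Slc25a28 is lowest there.

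Slc25a44 was also lower with each vector than in UN in 12 of 12 pairs, at 41.9 to 54.2 CPM (mean log2 fold change -0.38, SE 0.12, adjusted p = 0.136). In TPM, which differ from CPM in scaling as well as in the division by length, the means were 10.9 to 11.9 with the vectors and 11.4 in UN. With the length correction alone the log2 fold change was -0.19 (SE 0.22). For Slc25a47 the vectors gave 16.9 to 38.4 CPM (log2 fold change -0.40, SE 0.26, adjusted p = 0.795), lower than UN in 8 of 12 pairs, and in TPM the means were 18.6 to 21.4 with the vectors and 20.7 in UN.

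The GK vector was also compared between cells that carried GKRP in both arms. Over the 4 vectors, GK gave a log2 fold change of 0.60 for Slc25a47 (SE 0.17, adjusted p = 0.583) and 0.32 for Slc25a44 (SE 0.08, adjusted p = 0.408), higher in 10 of 12 pairs for each. No member was called, beside 0.0164% of all genes raised, and with the mouse as a block Slc25a47 was called (0.61, adjusted p = 0.0343, beside 0.14%). The interaction, the GK difference with GKRP minus that without, was -0.94 for Slc25a47 (SE 0.38, unadjusted p = 0.0208, adjusted p = 1) and -0.43 for Slc25a44 (SE 0.17, unadjusted p = 0.0219, adjusted p = 1). It was called for no member and for 0% of all genes.

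Several members differed more between the mice than between the conditions. Over the 27 tested members with a mean of at least 10 CPM, the spread of the 3 mouse means exceeded that of the 10 condition means on the log2 scale for 14. For 7 of the 27 the same mouse was highest in all 10 conditions, namely Slc25a13, Slc25a10, Slc25a23, Slc25a39, Slc25a38, Slc25a32 and Slc25a51. These are descriptions of 3 animals, with no test. The same counts were not made over all genes, where samples of the same mouse also deviated together (mean r 0.223). They are therefore not read as a trait of the family.

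Slc25a13 ran from 161 to 212 CPM in mouse 2, from 93.4 to 117 CPM in mouse 3 and from 56.3 to 94.5 CPM in mouse 1. Mouse 2 was the highest and mouse 1 the lowest in 10 of 10 conditions, 2.55-fold apart. Slc25a10, the dicarboxylate carrier, averaged 29.2 CPM in mouse 1 and 13.5 and 15.2 CPM in mice 2 and 3, and Slc25a23 averaged 21.5, 12.3 and 9.65 CPM. Slc25a37 averaged 102, 49.1 and 82.2 CPM in mice 1, 2 and 3, and mouse 2 was the lowest in 10 of 10 conditions. Slc25a12, the other aspartate/glutamate carrier, named here after its values were seen, averaged 21.5, 20.3 and 21.6 CPM.

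**Figure D5:**
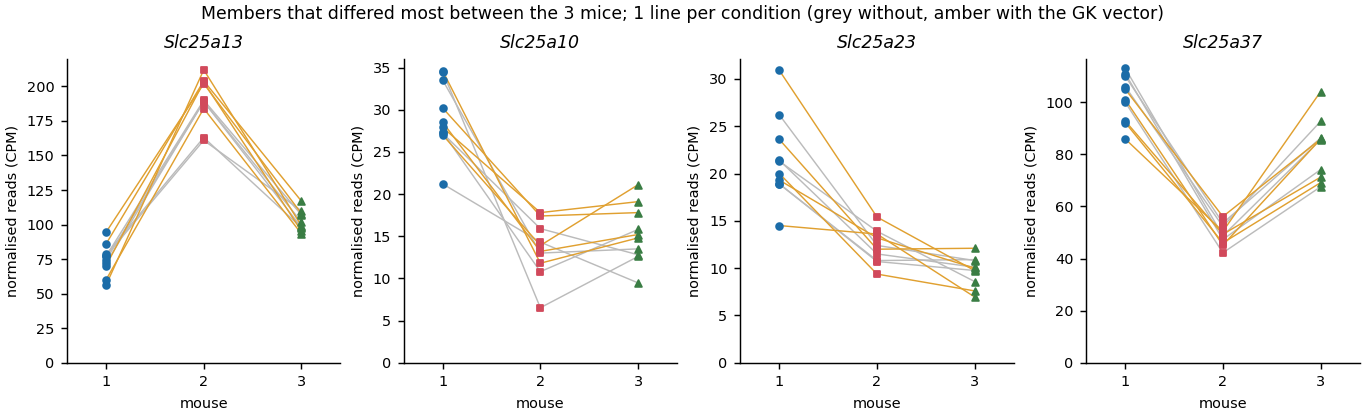
Normalised reads (CPM) of Slc25a13, Slc25a10, Slc25a23 and Slc25a37 in mice 1, 2 and 3, with 1 line for each of the 10 conditions (grey at endogenous GK, amber with the GK vector). For Slc25a13 mouse 2 lies above the others in every condition, and for Slc25a10 and Slc25a23 mouse 1 does.

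Slc25a42, a carrier of coenzyme A, scattered too much to be read here, and the cause was not tested. In GK of mouse 3, 1 culture held 0.579 CPM and the other 5.87 CPM. Its coding transcript was listed at 0 in 19 of 36 libraries and at 11.9 reads or more in the other 17, with none between. The gene's values scattered from 0.310 to 6.80 CPM within as well as between conditions, and its log2 fold changes (-0.20, SE 0.67, for GK against the 5 groups) carry the largest errors of the family.

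Members were also searched for the E-box CACGTG in RefSeq promoter windows (GRCm38.p6, 250 bases before and 50 after a start), which were found for 36 of 47 members. The motif stood in 8 of 46 member windows (17.4%), belonging to 7 members, and in 7.15% of all 32851 windows. The motif itself holds a CG, and member windows were richer in CG dinucleotides (median 11.5, against 6 for all windows). Whether the shares differ at equal CG content was not tested. The 7 members with the motif were Slc25a1, Slc25a13, Slc25a14, Slc25a15, Slc25a31, Slc25a33 and Slc25a36, and none of the 6 tested ones (all but Slc25a31) was called in any comparison. Neither Slc25a29 nor Slc25a47 holds it in this window. Slc25a44 has no entry.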

How the data were processed

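RNA of 36 hepatocyte cultures was sequenced. The authors ran Salmon 1.4.0 on untrimmed reads against mouse transcripts (Gencode M26, GRCm39) and deposited, for each culture, expected counts (not normalized) and TPM (normalized within the library) of 139225 transcripts, with effective lengths. Replicates were not pooled. Transcripts were matched by identifier to genes of a later Gencode release (98.8% matched, and 0.392% to 0.639% of reads were left out). Expected counts were summed per gene, the 2 cultures that UN and GK had in each mouse were added, and sums were rounded, giving 30 samples, grouped by the labels.

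Genes were filtered with filterByExpr, scaled by TMM (0.901 to 1.094) and tested with edgeR 4.0.16 (R 4.3.3) by its quasi-likelihood F test, with Benjamini-Hochberg adjustment over 12177 genes. GK alone against the 5 groups, and single vectors with GK against GK, used a model in which the 5 endogenous-GK conditions were 1 group, and the other comparisons a model of 10 conditions. SE is the log2 fold change divided by the square root of F. The tests were checked on simulated counts, drawn independently for each sample. That check does not cover samples of the same mouse deviating together. TPM were averaged over the 2 cultures of a mouse. Strand of the libraries is not given in the sources used here. The study states no mouse term, so it was an alternative. Samples of the same mouse share an animal and deviated together (mean r 0.223, over 0.1 in 82.2% of 135 pairs, against -0.11 between mice), and the coefficient of biological variation was 0.323 without the term and 0.231 with it. Paired cultures were not 1 library deposited again (chi-square over its degrees of freedom, 4.28 to 29.2). DESeq2 1.42.0, RLE, a length offset, other filters, sample sets and fold limits, and leaving out mice were alternatives.

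Named members were those called in any comparison, the 10 of largest fold change in the 3 main comparisons, the 10 of highest TPM, and for each role the most abundant and the most different. Members, lists and tests were chosen with earlier results of these data known, so no pattern is independent support, and RefSeq windows matched 36 of 47 members by symbol. Protein sequences were not used here. The transcript level of the gene delivered by the GK vector is not reported here.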

Additional observations from a re-analysis of the deposited data

Results flagged for a closer look

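Gckr held 1463 CPM in 1 of the 2 GK cultures of mouse 3, where the next of the 6 GK cultures held 98.0 CPM. The gap to the nearest culture was 0.967 of the range, above the critical value for 6 values. Chance passes that critical value in about 1 group in 20 where the 6 values are independent. The 6 cultures were 2 from each of 3 mice, so this rate need not hold here. Of the 34 groups of 6 cultures looked at, for 16 members and Gckr in UN and in GK, this was the only one past its critical value. Slc25a47 in the 2 GK cultures of mouse 3 was 102 and 112 CPM and Slc25a44 was 108 and 125 CPM. Without that culture, a comparison chosen after seeing the data, the same members were called in each comparison.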

How the results depend on the processing

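For GK against the 5 groups the 3 members stayed 3 under 8 alternatives and were 2 (Slc25a47 and Slc25a44) with the length offset and without each mouse. For GK against UN, where edgeR called 0, DESeq2 called 2, a fit of single cultures 2, the mouse as a replicate block 2, and leaving out a mouse 0 to 1. For single vectors with GK against GK the count of 2 became 0 with the length offset and 0 with only the conditions compared, and ran from 0 to 1 without a mouse. For the mean of the vectors with GK it ran from 0 to 2 without a mouse, with 0 reached without mouse 3 (2 of 2 calls lost). The mouse as a replicate block gave 2 members for the vectors against UN, both for their mean and singly, 3 for 446L against 446P with GK, and 1 for GK against no GK with GKRP, where each had been 0, and leaving out a mouse gave 0 to 1 for the last. The block ended no call. Counts of the interaction and of 446L against 446P at endogenous GK were 0 under every alternative run. Of 563 values of 47 named log2 fold changes under alternatives, 513 kept direction and side of the threshold, 22 passed it anew, 25 no longer passed and 3 reversed. Reversed were Slc25a42 (-0.07 without mouse 1, and up to 0.73 without another), Slc25a30 (0.48) and Slc25a15 (-0.01), the last 2 with the length offset, all for the mean of the vectors with GK against GK. The cause was not tested. Slc25a29, Slc25a34, Slc25a36 and Slc25a42 held few reads, at 1 to 66 per mouse.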
